A study of Mus musculus with 30 samples.

Results

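The miR-29 family of microRNAs (miRNAs) was measured in the hearts of mice after carbon black had been placed in their airways. Its members were taken by the names printed on the array and in the deposited value table: mmu-miR-29a, mmu-miR-29b and mmu-miR-29c, which are guide strands, and mmu-miR-29a* and mmu-miR-29c*, which are passenger strands. The asterisk is the older mark for the less abundant strand of a hairpin, and the prefix for mouse is left out hereafter. These are 5 of the 306 mouse miRNAs that passed a filter on dim probes, out of 1079 on the array, and all 5 members passed it. The passenger strands miR-29b-1* and miR-29b-2* were also on the array, are not among the members and did not pass: the best of 4 probes for miR-29b-1* was detected on 14 of 29 arrays, and both probes for miR-29b-2* on 0.

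A miRNA is loaded into an Argonaute protein and pairs with messenger RNAs mainly through its seed, which leads to their repression. The miR-29 family is known for repressing transcripts of the extracellular matrix, among them those of collagens, elastin and fibrillin. In the heart it is studied for its part in fibrosis, the laying down of matrix between muscle cells, and its levels are known to differ between younger and older animals in several tissues.

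Female C57BL/6 mice, bought at 5 to 6 weeks of age, were instilled once through the trachea with 162 µg of the nanosized carbon black Printex 90 or with the vehicle alone, which was saline holding cell-free lung lavage fluid. Slices of heart that included both ventricles were taken 1, 3 or 28 days later, and each RNA sample was taken to come from its own mouse. Arrays with a signal were held for 6 Printex 90 and 4 vehicle mice of day 1, 4 Printex 90 and 6 vehicle mice of day 3, and 5 Printex 90 and 4 vehicle mice of day 28. The series text states 6 mice per group, and 1 further Printex 90 mouse of day 3, replicate 3, is in the deposited value table only. Every mouse was instilled, and mice of day 28 had also aged between day 1 and day 28, so time since instillation and age cannot be told apart.

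The family was chosen by name, but with earlier results of these data in view, among them the day 28 differences of miR-29b and miR-29c between Printex 90 and vehicle hearts. Differences between the treatments on day 28 are therefore given as a description, with no test. The comparisons of day 28 with day 1 or day 3 use the same day 28 hearts, so they are not independent of that choice. Whether values over time were also in view is not recorded. The p-values over time, which come from a fit to all 306 miRNAs, are therefore no independent support for a list of miRNAs chosen in this way.

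The mature sequences show which members the arrays must tell apart. They are given 5′ to 3′ from RefSeq (mouse build GRCm38.p6), with the seed, bases 2 to 8, in capitals, and were matched to the array's names by arm: the guide strands are the 3p arms and the passenger strands the 5p arms of their hairpins.
miR-29a: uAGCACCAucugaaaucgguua
miR-29c: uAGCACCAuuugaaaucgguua
miR-29b: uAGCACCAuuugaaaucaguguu
miR-29a*: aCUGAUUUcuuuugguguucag
miR-29c*: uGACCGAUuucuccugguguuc
All 3 guide strands carried the seed AGCACCA, and of 1679 mouse mature names in the RefSeq table only these 3 did. Counted from 1 at the 5′ end, miR-29a and miR-29c differed at 1 of 22 positions, C10U, an identity of 95.5%. Between miR-29c and miR-29b the differences were G18A, U21G and A22U, with 1 extra base at the end of miR-29b. The passenger strands shared no seed with the guides or with each other. Counted from the 5′ ends without a shift, they matched at 22.7% of 22 positions. That count understates their likeness, because both hold the runs GAUUUCU and UGGUGUUC at shifted positions. The probe sequences of the array are not used here. How far a probe for miR-29a also bound miR-29c, or a probe for miR-29a* also miR-29c*, was not tested.

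The family is made from 4 hairpins at 2 places in the genome, which matters for reading miR-29b, whose guide strand is the same from both. Mir29a (chr6:31062660-31062747) and Mir29b-1 (chr6:31063023-31063093) lie on the minus strand with 275 bases between them. Mir29b-2 (chr1:195037040-195037120) and Mir29c (chr1:195037547-195037634) lie on the plus strand with 426 bases between them. The hairpins of the members with both arms measured are shown with their mature arms in capitals, the passenger strand first.
Mir29a hairpin: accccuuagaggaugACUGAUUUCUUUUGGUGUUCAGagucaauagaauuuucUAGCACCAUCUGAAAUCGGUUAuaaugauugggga
Mir29c hairpin: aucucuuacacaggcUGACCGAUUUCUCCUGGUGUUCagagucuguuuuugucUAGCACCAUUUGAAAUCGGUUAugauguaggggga

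All 3 guide strands and miR-29c* gave a signal well above background on all 29 arrays, on both probes of each. Levels are mean log2 fluorescence intensities after each array was scaled on the 75th percentile of its probes that were detected on all arrays; they compare hearts for 1 miRNA and do not rank miRNAs among themselves. The guides stood far above the floor of 4.04, the lowest detected signal. For miR-29a* 1 of 4 probes was usable, detected on 21 of 29 arrays, and its levels of 4.04 to 5.43 lay close to that floor.

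On day 1, miR-29a had a lowest, median and highest level of 12.26, 12.47 and 12.75 in 6 Printex 90 hearts, against 12.59, 12.41, 12.46 and 12.48 in the 4 vehicle hearts. On day 3 it had 12.47, 12.46, 12.65 and 12.77 in 4 Printex 90 hearts, and a lowest, median and highest level of 12.37, 12.68 and 13.00 in 6 vehicle hearts. On day 28 it had 12.80, 12.72, 12.88, 12.83 and 13.06 in 5 Printex 90 hearts, against 12.94, 12.82, 12.95 and 13.27 in 4 vehicle hearts. The treatments overlapped on each day, and the highest level of all was that of vehicle day 28 replicate 4.

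The guide miR-29b, made at both loci, had a lowest, median and highest level of 11.54, 11.63 and 11.86 in Printex 90 hearts of day 1, against 11.82, 11.57, 11.58 and 11.50 in vehicle hearts. On day 3 it had 11.52, 11.82, 11.78 and 11.76 in Printex 90 hearts, and a lowest, median and highest level of 11.53, 11.81 and 11.93 in vehicle hearts. On day 28 it had 11.97, 11.93, 12.13, 11.89 and 12.08 in Printex 90 hearts, against 12.22, 11.99, 12.20 and 12.22 in vehicle hearts. Each of the 9 hearts of day 28 lay above each of the 10 hearts of day 1, the closest pair being 11.89 and 11.86, while day 3 hearts overlapped both.

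The guide miR-29c, made at the chromosome 1 locus, had a lowest, median and highest level of 11.99, 12.27 and 12.46 in Printex 90 hearts of day 1, against 12.34, 12.10, 12.27 and 12.29 in vehicle hearts. On day 3 it had 12.23, 12.33, 12.40 and 12.52 in Printex 90 hearts, and a lowest, median and highest level of 12.21, 12.44 and 12.69 in vehicle hearts. On day 28 it had 12.63, 12.53, 12.67, 12.56 and 12.83 in Printex 90 hearts, against 12.74, 12.65, 12.78 and 13.12 in vehicle hearts. Again all 9 hearts of day 28 lay above all 10 of day 1, with 12.53 and 12.46 the closest pair.

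The passenger strand miR-29c*, cut from the same hairpin as miR-29c, had a lowest, median and highest level of 6.14, 6.28 and 6.39 in Printex 90 hearts of day 1, against 6.25, 6.03, 6.27 and 6.24 in vehicle hearts. On day 28 it had 6.51, 6.41, 6.48, 6.43 and 6.65 in Printex 90 hearts, against 6.58, 6.46, 6.58 and 6.86 in vehicle hearts. No heart of day 28 reached down to those of day 1, the closest pair being 6.41 and 6.39, and on day 3 the levels ran from 6.10 to 6.38 in Printex 90 and from 6.12 to 6.51 in vehicle hearts.

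**Figure D1:**
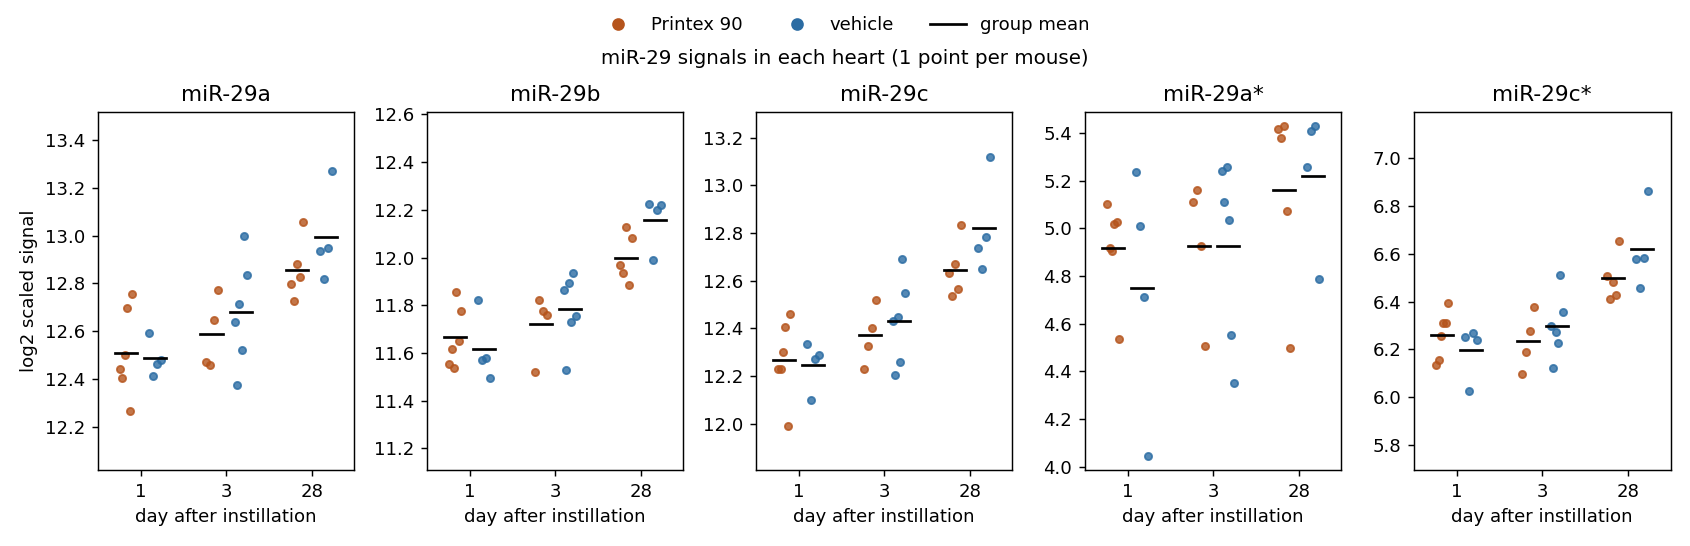
Log2 scaled signal (vertical axis) of each member in each heart by day after instillation, Printex 90 left of vehicle on each day, with a bar at each group mean; every panel spans 1.5 log2 units. The points of day 28 sit above those of day 1 for miR-29b, miR-29c and miR-29c*, whereas miR-29a* ranges from 4.04 to 5.43 and overlaps between all groups.

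Over the 6 groups the means of all 3 guides came in 1 order: vehicle day 28 was highest, then Printex 90 day 28, vehicle day 3, Printex 90 day 3, Printex 90 day 1 and vehicle day 1. For miR-29b the group means in that order were 12.16 ± 0.11, 12.00 ± 0.10, 11.78 ± 0.15, 11.72 ± 0.13, 11.67 ± 0.13 and 11.62 ± 0.14 (SD). The 4 lower means each differed from the next by less than the spread within a group. For miR-29c* the mean of Printex 90 day 1, 6.26 ± 0.10, and that of Printex 90 day 3, 6.24 ± 0.12, changed places, again within their spread.

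The first question of the design was whether Printex 90 in the airways was followed by other miR-29 levels in the heart. In the limma fit to all miRNAs no member differed between Printex 90 and vehicle hearts past the threshold of an adjusted p of 0.05 on day 1 or day 3. Of all 306 miRNAs 0% passed on each of these days (0 of 306, with 2 and 1 at an unadjusted p under 0.05), so the members do not stand apart from the rest in this. All 5 differences (Printex 90 minus vehicle) lay above 0 on day 1 and all 5 below 0 on day 3. Among all 306 miRNAs 108 lay above 0 on day 1 and 195 on day 3. The guides moved together across the arrays, so their signs are not separate results.

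On day 1 the differences were 0.02 ± 0.11 (SE) for miR-29a, 0.05 ± 0.09 for miR-29b and 0.02 ± 0.10 for miR-29c, and 0.17 ± 0.22 and 0.06 ± 0.08 for miR-29a* and miR-29c* (lowest adjusted p = 0.875 by limma). On day 3 they were −0.09 ± 0.11, −0.06 ± 0.09 and −0.06 ± 0.10 for the guides, with −0.00 ± 0.22 for miR-29a* and −0.06 ± 0.08 for miR-29c* (adjusted p = 0.999 for each). The widths of the intervals say what size could have been missed: the 95% confidence interval for miR-29b ran from −0.13 to 0.23 on day 1 and from −0.25 to 0.12 on day 3. In bulk RNA of this kind fewer cells of a type and less RNA per cell cannot be told apart.

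On day 28, given without a test, all 5 differences lay below 0: −0.14 ± 0.12 for miR-29a, −0.12 ± 0.09 for miR-29c* and −0.06 ± 0.23 for miR-29a*, beside intervals from −0.35 to 0.03 for miR-29b and from −0.40 to 0.05 for miR-29c. Of all 306 miRNAs 168 lay above 0 on this day. The median over the members was −0.14, against 0.01 over all 306. On the 3 slides that held both groups the difference for miR-29c ran from −0.29 to −0.10. As a mean of the 3 days, which holds the day 28 values and is likewise given without a test, the differences were −0.07 ± 0.07 for miR-29a, −0.06 ± 0.05 for miR-29b and −0.07 ± 0.06 for miR-29c, with intervals of −0.20 to 0.07, −0.16 to 0.05 and −0.20 to 0.05.

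**Figure D2:**
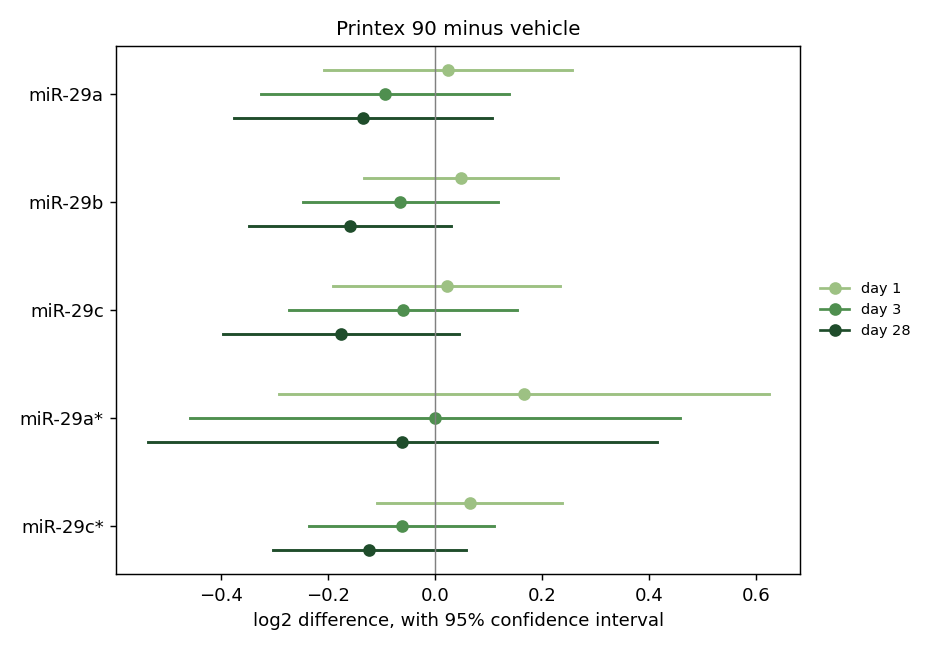
Log2 difference, Printex 90 minus vehicle (horizontal axis), of each member on days 1, 3 and 28, with lines for the 95% confidence interval; day 28 is a description, with no test. Every interval of days 1 and 3 includes 0. All points lie above 0 on day 1 and below 0 on day 28.

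Whether the difference between the treatments itself differed between day 3 and day 1 was asked with an interaction term, in which 0% of 306 passed. The term was −0.12 ± 0.16 for miR-29a, −0.11 ± 0.12 for miR-29b and −0.08 ± 0.15 for miR-29c, and −0.17 ± 0.31 for miR-29a* and −0.13 ± 0.12 for miR-29c* (lowest adjusted p = 0.735 by limma). For day 28 minus day 1, given without a test since it uses the day 28 values, the term was −0.21 ± 0.13 for miR-29b, −0.20 ± 0.15 for miR-29c and −0.19 ± 0.12 for miR-29c*, with an interval of −0.47 to 0.05 for miR-29b.

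The second question was how the levels of the family differed with time. Over both arms together the 3 guides and miR-29c* rose between day 1 and day 28, that is, 4 of the 5 members passed, all upwards. Of all 306 miRNAs 7 passed (2.29%), 5 of them upwards (1.63%), so the family supplied 4 of the 5 that rose. The fifth was miR-1895, at 0.29 ± 0.07, and those that fell were miR-301a and miR-208b. This last miRNA is carried by the gene of the slow beta-myosin of the developing heart, and was not well above background on day 28.

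As differences between the mean of both arms on day 28 and on day 1, miR-29c rose by 0.48 ± 0.07, a 1.39-fold higher level (95% confidence interval 1.25 to 1.55; adjusted p = 0.000111 by limma). For miR-29b the difference was 0.44 ± 0.06, or 1.35-fold (1.24 to 1.48; adjusted p = 4.96e-05), and for miR-29a 0.43 ± 0.08, or 1.34-fold (1.20 to 1.51; adjusted p = 0.00116). The passenger strand miR-29c* rose by 0.33 ± 0.06, or 1.26-fold (1.15 to 1.37; adjusted p = 0.00086). Among 306 differences these ranked 1, 2, 3 and 7 from the top.

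The exception was miR-29a*, whose difference of 0.36 ± 0.16 ranked 6 but did not pass (adjusted p = 0.497 by limma). The median over the 5 members was 0.43, against 0.03 over all tested miRNAs. In 9 hearts of day 28 and 10 of day 1 the groups did not overlap for miR-29b, miR-29c and miR-29c*, and among all 306 miRNAs these 3 (0.98%) were the ones whose hearts of day 28 all lay above those of day 1. Leaving out each of the 29 arrays in turn kept all 4 calls, with differences for miR-29b between 0.42 and 0.47.

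The calls over both arms depended on how the arrays were scaled. Scaled on the 75th percentile over all probes, the differences were 0.43, 0.44 and 0.48 for miR-29a, miR-29b and miR-29c, with adjusted p between 0.742 and 0.939 by limma. Without scaling they were 0.32, 0.33 and 0.37, with an adjusted p of 0.99. With quantile normalization the guides were still called, at 0.33, 0.31 and 0.29 (adjusted p = 0.000787, 0.00326 and 0.000605), the value of miR-29c being 1.63 times smaller than the 0.48 above. With total gene signal they were called at 0.47, 0.48 and 0.51 (adjusted p = 0.000694, 0.000145 and 0.000145).

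The call on miR-29c* was lost under more settings than those on miR-29a and miR-29c. Besides both scalings that ended every call, it ended with quantile normalization (0.34, adjusted p = 0.652 by limma), with normexp background correction (0.21, adjusted p = 0.489) and in the deposited value table (0.19, adjusted p = 0.387). In that table the call on miR-29b ended too (0.35, adjusted p = 0.18), while miR-29a and miR-29c were called there at 0.36 and 0.39 (adjusted p = 0.035 and 0.0079). Between day 28 and day 3 over both arms, described further on, the call on miR-29c* likewise ended with quantile normalization (adjusted p = 0.62) and normexp (adjusted p = 0.701).

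**Figure D3:**
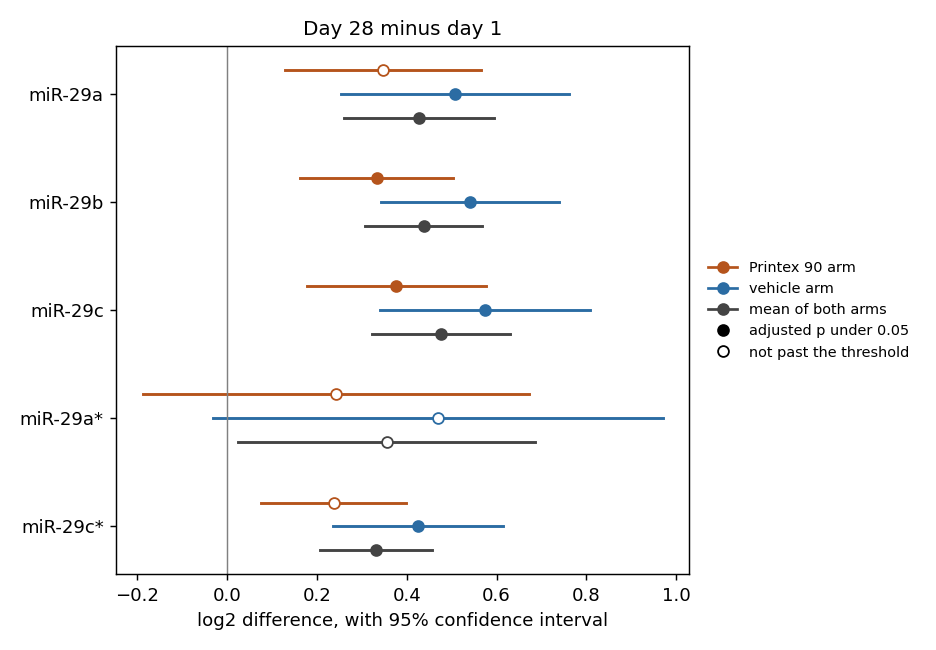
Log2 difference, day 28 minus day 1 (horizontal axis), of each member in the Printex 90 arm, the vehicle arm and as the mean of both arms, with lines for the 95% confidence interval; filled points passed an adjusted p of 0.05. All 15 points lie above 0, between 0.24 and 0.57, and the miR-29a* intervals are the widest.

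In the vehicle arm alone 4 of the 5 members rose between day 1 and day 28, among 6 of 306 miRNAs that passed (1.96%), 5 of them upwards (1.63%). The differences were 0.57 ± 0.11 for miR-29c (adjusted p = 0.00311 by limma), 0.54 ± 0.10 for miR-29b (adjusted p = 0.0012), 0.51 ± 0.12 for miR-29a (adjusted p = 0.0229) and 0.42 ± 0.09 for miR-29c* (adjusted p = 0.00771). The 4 hearts of day 28 lay above the 4 of day 1 for each of these, as they did for 9 of 306 miRNAs (2.94%). The other miRNA that rose was miR-31, at 0.45 ± 0.12, and miR-29a* was at 0.47 ± 0.24 (adjusted p = 0.755).

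Single vehicle hearts decided some of these calls. The call on miR-29a ended without vehicle day 1 replicate 2, 3 or 4 (adjusted p = 0.0819, 0.0742 and 0.0672 by limma) and without vehicle day 28 replicate 4, where its difference was 0.41 (adjusted p = 0.191). That on miR-29c* ended without vehicle day 1 replicate 2 (0.37, adjusted p = 0.0536) and without vehicle day 28 replicate 4 (0.34, adjusted p = 0.0699). Those on miR-29b and miR-29c were kept without any 1 of the 29 arrays, but a fit to the compared groups alone called 0 members (adjusted p = 0.0646 for miR-29b).

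Other settings ended calls in the vehicle arm too. That on miR-29c* ended with normexp (0.29, adjusted p = 0.902 by limma) and with quantile normalization (0.64, adjusted p = 0.356), and that on miR-29b with quantile normalization (0.36, adjusted p = 0.0539). Without the filter on dim probes the call on miR-29a ended (adjusted p = 0.0646). In the value table those on miR-29a, miR-29b and miR-29c* ended (adjusted p = 0.08, 0.122 and 0.122).

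In the Printex 90 arm miR-29b and miR-29c rose between day 1 and day 28, by 0.33 ± 0.08 (adjusted p = 0.0458 by limma) and 0.38 ± 0.10 (adjusted p = 0.0498), among 4 of 306 that passed (1.31%), 2 of them upwards (0.654%). For miR-29a the difference was 0.35 ± 0.11 (adjusted p = 0.151), for miR-29c* 0.24 ± 0.08 (adjusted p = 0.257) and for miR-29a* 0.24 ± 0.21 (adjusted p = 0.647). All hearts of day 28 lay above all of day 1 for miR-29c, miR-29c* and miR-29b, and this held for 3 of 306 miRNAs (0.98%) in the arm. Both calls lay at the threshold: they ended without any 1 of the 5 day 28 hearts or without day 1 replicate 1, 2, 3 or 5 of the arm (adjusted p from 0.0523 to 0.259), and with arrays of other groups left out also in 10 cases for miR-29b and 13 for miR-29c.

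Differences over time were thus called for 2 members in the Printex 90 arm and for 4 in the vehicle arm. Whether the arms differed in this was not tested, because the term for it uses the day 28 values of both treatments. As a description, miR-29c was the 59th of 306 from the top in the Printex 90 arm, where the median over all miRNAs was 0.10, and the first in the vehicle arm, where that median was −0.05. The member ranked lowest in the Printex 90 arm, miR-29c*, was the 108th. All 5 members lay above 0 in both arms, as did 225 of 306 miRNAs in the Printex 90 arm and 131 of 306 in the vehicle arm.

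**Figure D4:**
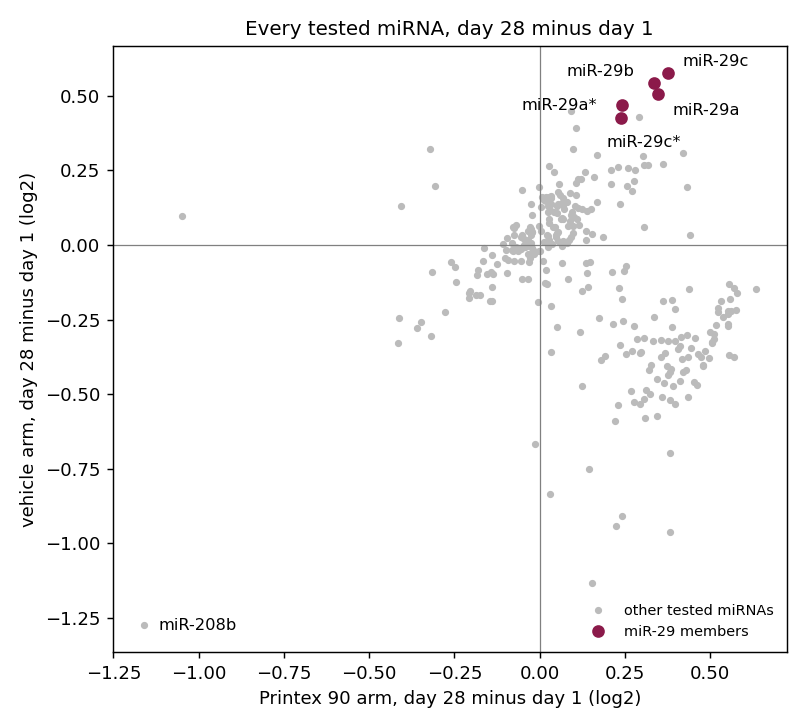
Day 28 minus day 1 (log2) of all 306 tested miRNAs in the Printex 90 arm (horizontal axis) and the vehicle arm (vertical axis), with the 5 miR-29 members in dark red and miR-208b labelled. The members lie together in the upper right, between 0.24 and 0.38 in the Printex 90 arm and between 0.42 and 0.57 in the vehicle arm.

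The day 3 hearts divided the time into an earlier step and a longer later one. These steps were not tested against each other. Between day 1 and day 3 no member passed in either arm or in both together, as was so for all 306 miRNAs (0% in each); over both arms the guides were at 0.14 ± 0.08 (miR-29a), 0.11 ± 0.06 (miR-29b) and 0.14 ± 0.07 (miR-29c). Between day 3 and day 28 over both arms miR-29b, miR-29c and miR-29c* rose, by 0.33 ± 0.06, 0.33 ± 0.07 and 0.29 ± 0.06 (adjusted p = 0.00393, 0.0107 and 0.006 by limma), while miR-29a was at 0.29 ± 0.08 (adjusted p = 0.0612). These were 3 of the 6 miRNAs of 306 that passed (1.96%).

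By arm, 1 member passed between day 3 and day 28 in vehicle hearts, miR-29b at 0.37 ± 0.09 (adjusted p = 0.0409 by limma), 1 of 2 miRNAs of 306 (0.654%). This call ended without 13 of the 29 arrays, among them vehicle day 28 replicates 1, 3 and 4 and vehicle day 3 replicates 2, 4 and 6 (adjusted p from 0.0733 to 0.213). In Printex 90 hearts 0 members passed, against 1 of 306 miRNAs (0.327%), with miR-29b at 0.28 ± 0.09 and miR-29c at 0.28 ± 0.11.

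The arrays lay on 4 slides, each scanned as a unit, and every slide held hearts of several groups. The differences between day 28 and day 1 were also taken within each slide, from the same arrays, on 4 slides in the Printex 90 arm and 3 in the vehicle arm. Those of miR-29b, miR-29c and miR-29c* had to lie above 0, because the hearts of these days did not overlap. The same held for miR-29a in the vehicle arm, where its hearts did not overlap and the differences ran from 0.35 to 0.79. In the Printex 90 arm, where its hearts did overlap, the differences of miR-29a ran from 0.23 to 0.55. For miR-29b they ran from 0.19 to 0.41 in the Printex 90 arm and from 0.40 to 0.73 in the vehicle arm. For miR-29c they ran from 0.21 to 0.61 in the Printex 90 arm and from 0.40 to 0.83 in the vehicle arm.

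**Figure D5:**
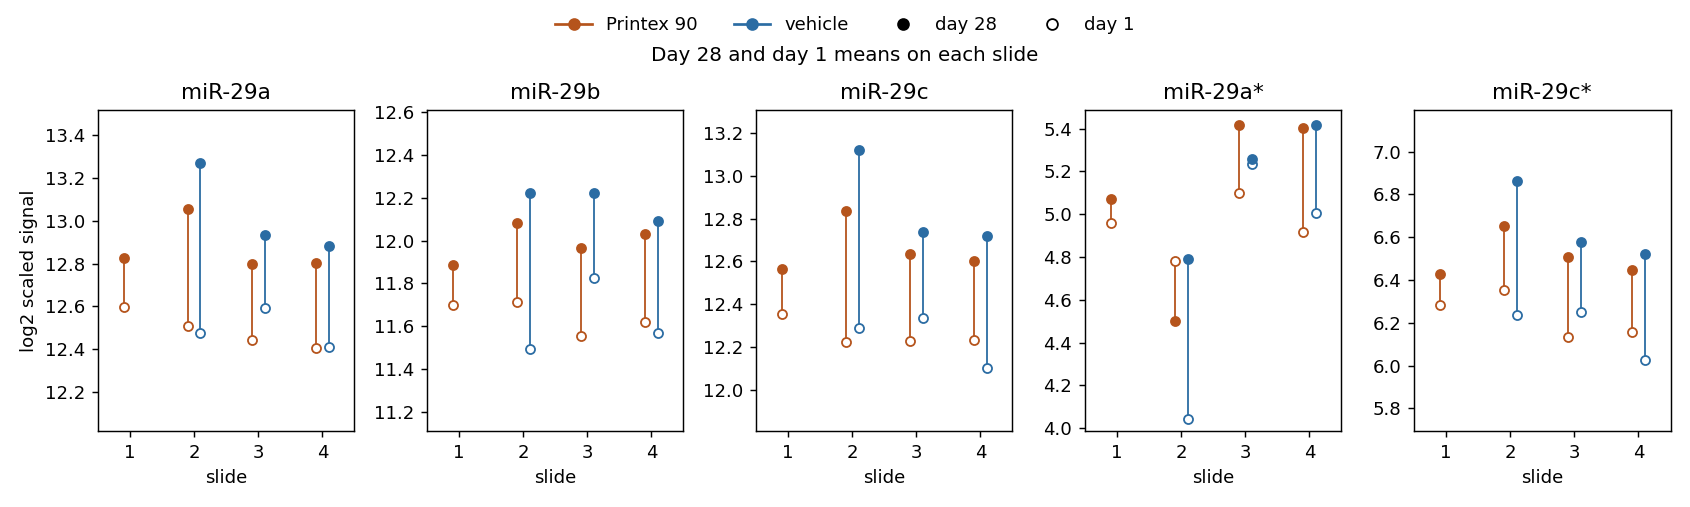
Mean log2 scaled signal of each member on each slide (horizontal axis), filled for day 28 and open for day 1, in the Printex 90 arm and the vehicle arm; slide 1 held no vehicle heart of day 28. Filled points lie above open ones throughout for the 3 guides and miR-29c*, and miR-29a* is lowest on slide 2.

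The miR-29a passenger strand behaved differently from its own guide. Its mean was 4.54 ± 0.29 on the 8 arrays of slide 2, against 4.94 ± 0.13, 5.20 ± 0.11 and 5.26 ± 0.21 on slides 1, 3 and 4 (SD), whereas miR-29a stood at 12.80 ± 0.32 on slide 2 and at 12.59 to 12.70 on the others. It was at the floor of 4.04 in vehicle day 1 replicate 4, which lay on slide 2. Within slides its difference between day 28 and day 1 ran from −0.28 to 0.48 in the Printex 90 arm and from 0.02 to 0.74 in the vehicle arm. With slide as a block it was 0.27 over both arms (adjusted p = 0.122 by limma).

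Across the 29 arrays, as a description, miR-29a and miR-29c moved together most closely (Pearson r = 0.98, and 0.96 after group means were taken off). The log2 difference between their signals varied from array to array with an SD of 0.05. For miR-29b the correlation with miR-29c was 0.88, and 0.61 without group means. The passenger strand miR-29c* correlated with its guide at 0.93, and at 0.84 without group means, but miR-29a* with its guide at −0.04, and at −0.59. These values share the array, the slide and the scaling.

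The probes of a member gave differences of similar size. Those between day 28 and day 1 were 0.34 and 0.36 on the probes of miR-29a in the Printex 90 arm, and 0.47 and 0.55 in the vehicle arm. On the probes of miR-29b they were 0.33 and 0.34 in the Printex 90 arm, and 0.52 and 0.56 in the vehicle arm. On those of miR-29c* they were 0.22 and 0.25 in the Printex 90 arm, and 0.39 and 0.46 in the vehicle arm.

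Of all other tested miRNAs, miR-3107*, miR-99a, miR-22, miR-219-5p and miR-101a had the highest correlation with the mean of the 3 guides over 29 arrays (Pearson r between 0.66 and 0.70, against a median of −0.03). Their differences over both arms between day 28 and day 1 were 0.11 ± 0.06, 0.14 ± 0.06, 0.14 ± 0.04, 0.27 ± 0.10 and 0.13 ± 0.05, and none of these 5 passed (adjusted p from 0.166 to 0.616 by limma). After group means were taken off, miR-490-3p, miR-30c-2*, miR-486*, miR-3107* and miR-99a led, at 0.70 to 0.79. The arrays share their scaling, and these are descriptions.

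Other miRNAs known in cardiac matrix and fibrosis did not pass. Of 12 on that list, with the miR-29 members left out, 0 passed in either direction over both arms between day 28 and day 1. Of all 306 miRNAs 7 passed (2.29%), so 0 of 12 does not set the list apart. On the list 11 of 12 lay above 0, against 177 of 306, and the median was 0.12, against 0.03 over all miRNAs. The highest were miR-101c at 0.14 ± 0.05 and miR-101a at 0.13 ± 0.05, and miR-133a, a muscle miRNA known to repress connective tissue growth factor, was at 0.13 ± 0.07. Its relative miR-133b was at 0.12 ± 0.07. Of 17 miRNAs known from maturation of the heart after birth, let-7 and miR-30 members among them, 1 passed, downwards (miR-208b), and the median was 0.08.

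Markers of the cell types in the sections were set beside the rise. None of 23 tested markers passed over both arms between day 28 and day 1: 3 of fibroblasts, 5 of cardiomyocytes, 2 of endothelium, 2 of smooth muscle, 4 of red blood cells, 5 of leukocytes and 2 of 10 of other tissues. The share that passed over all 306 miRNAs was 2.29%, so this count does not set the markers apart. The differences of the markers between day 28 and day 1 did not all lie on one side of 0. Both endothelial markers lay above 0, miR-126-5p at 0.31 ± 0.32 and miR-126-3p at 0.08 ± 0.06, as did all 3 of fibroblasts (median 0.09) and 4 of 5 of cardiomyocytes (median 0.12). Of leukocyte markers 3 of 5 lay above 0 (median 0.08). Both smooth muscle markers lay below 0 (median −0.15), as did 3 of 4 red blood cell markers (median −0.29, lowest −0.37 for miR-144) and both of other tissues (median −0.25). The signals of each list were also summed before log2 was taken, so the brightest marker weighs most. For fibroblast markers the log2 of this sum ran from 9.89 to 10.77 on day 1 and from 9.94 to 10.97 on day 3. On day 28 it ran from 9.99 to 10.79. For cardiomyocyte markers it ran from 16.61 to 16.91, from 16.54 to 16.90 and from 16.73 to 16.94 on these days, and for red blood cell markers from 13.47 to 14.75, from 13.80 to 14.91 and from 13.39 to 14.66. For endothelial markers it ran from 13.27 to 13.66, from 13.33 to 13.64 and from 13.50 to 13.75, for smooth muscle markers from 9.91 to 11.72, from 9.95 to 10.66 and from 9.92 to 10.25, and for leukocyte markers from 9.80 to 10.38, from 9.92 to 10.51 and from 9.84 to 10.39. The heart muscle marker miR-1a had a mean level of 15.98, and of the 10 markers of other tissues only miR-122 and miR-192 passed the filter. The part of cell types in the rise of miR-29 was not tested.

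Between 18.4% and 27.5% of the spots of an array were well above background. The group means were 23.6%, 24.2% and 24.7% in Printex 90 hearts of days 1, 3 and 28, and 25.7%, 23.5% and 24.5% in vehicle hearts of the same days. Before scaling, the 75th percentile of the brightest array was 2.34 times that of the dimmest. Without the 4 dimmest arrays, a setting chosen after the data were seen, 4 members still rose over both arms, and 0 were called in the Printex 90 arm (adjusted p = 0.129 for miR-29b and 0.144 for miR-29c by limma).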

How the data were processed

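Total RNA enriched for small RNA from each heart had been labelled in 1 colour and hybridised to Agilent miRNA arrays. The authors used Feature Extraction 10.7.3.1, per the file headers, and their deposited scanner files hold background-subtracted signal intensity per spot with flags. A deposited series value table gives log2 values per miRNA for all 30 samples; its columns have medians of 5.78 to 5.82, rank miRNAs as the median pixel signal does (lowest Spearman correlation 0.995 over the arrays), and how it was scaled is not given in the sources used here. The members and lists were chosen with earlier results of these data known.

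The processed signals of a probe's spots were averaged, without outlying spots. Detection of a probe required that a share of 0.5 or more of its spots exceed background clearly. Scaling used each array's 75th percentile over 418 probes with detection on all 29 arrays, signals under the lowest detected one, 16.5, were raised to it, and log2 was taken. A miRNA was the mean of those of its probes with detection on 4 or more arrays in any group (306 miRNAs, 621 of 2889 probes). No spot was saturated (0 spots). Precision is limited by the number of arrays.

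Limma 3.58.1 under R 4.3.3 fitted 1 mean per group and 16 two-sided comparisons, with Benjamini-Hochberg adjustment over 306 miRNAs and a threshold of 0.05; the steps were tested on simulated data. Alternatives changed the scaling, background correction, summary, filter, blocks, arrays and groups in the fit, or took the value table. Normexp was run on median pixel signals with an offset of 50. Besides the members, miRNAs were named by 2 fixed lists, cell type markers, and the 5 highest correlations with the guides; the other miRNAs past a threshold were named after their values were seen.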

Additional observations from a re-analysis of the deposited data

Results flagged for a closer look

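In 30 combinations of member and group, 3 had a heart far from the others of its group, and chance alone flags about 1 in 20 groups. In vehicle hearts of day 28, miR-29b in replicate 2 stood at 11.99, with the 3 others between 12.20 and 12.22. In Printex 90 hearts of day 1, miR-29a* in replicate 6, an array of slide 2, stood at 4.54, with the 5 others between 4.90 and 5.10. In vehicle hearts of day 1, miR-29c* in replicate 2 stood at 6.03, with the 3 others between 6.24 and 6.27; without it the difference of miR-29c* between day 28 and day 1 was 0.37 in vehicle hearts (adjusted p = 0.0536 by limma).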

How the results depend on the processing

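Over 44 settings in all, alternatives and arrays left out included, the differences of the 3 guides between day 28 and day 1 lay above 0 in 132 of 132 values in the Printex 90 arm (0.16 to 0.45), the vehicle arm (0.33 to 0.75) and both together (0.29 to 0.51). Of these settings 29 only left out 1 array. An array of another group did not change a difference, and where hearts did not overlap no left-out array could change its sign. The count is thus no independent support for the direction. Calls depended more on the setting, and the cause was not tested. For the 4 members called in the vehicle arm, the 2 in the Printex 90 arm and the 4 in both together, the 75th percentile over all probes and no scaling each called 0. Both also called 0 between day 28 and day 3 in vehicle hearts (1 member) and in both arms (3 members). Scaling moved the median of all miRNAs between day 28 and day 1 in vehicle hearts, from −0.05 to 0.13 over all probes and −0.21 without scaling. Without scaling, the vehicle differences between day 3 and day 1 turned to −0.040, −0.066 and −0.052 for the guides miR-29a, miR-29b and miR-29c, and to −0.13 for miR-29c*, and the interaction term of miR-29c* for day 3 minus day 1 turned to 0.19, and to 0.012 with total gene signal.

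In the vehicle arm between day 28 and day 1, quantile normalization called 2 members, 1 was called from the value table and 0 with the compared groups alone. In the Printex 90 arm, 0 were called with quantile normalization, normexp, the brightest probe, the value table, the compared groups alone and without the 4 dimmest arrays, 1 with the share of spots above background as a covariate, and 4 with total gene signal, no filter and slide as a fixed or random block. Over both arms the value table called 2, and quantile normalization and normexp each called 3, without miR-29c*. Between day 28 and day 3 in vehicle hearts, 0 were called with quantile normalization, normexp, the brightest probe, the value table, the compared groups alone and without the 4 dimmest arrays, 2 with the covariate, 3 with total gene signal, detection on all arrays and either slide block, and 4 with no filter; in Printex 90 hearts, 1 with the fixed block and 4 with no filter, and in both arms 0 with the value table. With no filter 669 of 1079 miRNAs were called between day 28 and day 1 in the Printex 90 arm, against 4 of 306. Leaving out 1 array gave 2 to 4 calls between day 28 and day 1 in the vehicle arm, 0 to 2 in the Printex 90 arm and 4 in both, 0 to 3 and 3 to 4 between day 28 and day 3 in vehicle hearts and both arms, and 0 in the comparisons of treatments on days 1 and 3. No paired analysis was possible because the replicate numbers were given in accession order and pair no mice.

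The arrays of 4 to 6 mice per group limit what could be seen: values scattered around their group means with a median SD of 0.27 (log2). Of the members, miR-29a* lay near background, so its values carry the least information.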

Other observations

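The Printex 90 mouse of day 3, replicate 3, which has no scanner signal, stood at 12.60 for miR-29a, 11.73 for miR-29b, 12.38 for miR-29c, 5.82 for miR-29a* and 6.96 for miR-29c* on the log2 scale of the deposited value table. The 5 Printex 90 hearts of day 3 ran from 12.44 to 12.83 for miR-29a and from 6.87 to 7.19 for miR-29c* in that table, and this mouse was the lowest of them for miR-29a*. In the same table miR-29b-1* and miR-29b-2*, which did not pass the filter, had group means of 5.95 to 6.03 and of 5.72 to 5.76.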
